A study of Mus musculus with 13 samples.

Results

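The 10 genes described here encode G1 cyclins (Ccnd1, Ccnd2, Ccnd3 and Ccne1) and inhibitors of cyclin-dependent kinases (Cdkn1a, Cdkn1b, Cdkn1c, Cdkn2a, Cdkn2b and Cdkn2c). They were taken by symbol from a table of 15213 genes, and all 10 were listed in it. The table holds RNA sequencing of 10 mammary tumors from 6 females of the genotype MtTA Teto-TSG101wt and of the mammary glands of 3 FVB females that were wild-type. In the tumor-bearing mice, the MMTV promoter, which is active in mammary and salivary epithelium, drives the tetracycline-controlled transactivator tTA, and tTA switches on a TetO transgene for full-length mouse TSG101 and luciferase in the absence of doxycycline. The study's histology describes the tumors as adenosquamous carcinomas of founder line #1 in an FVB background. The controls carried neither transgene, so the 2 groups differ in genotype and in tissue, and these cannot be told apart. Of the 6 mice, 3 gave 1 tumor, 2 gave 2 tumors (tumors 2 and 3, and tumors 5 and 6) and 1 gave 3 tumors (tumors 8, 9 and 10), so that not all tumors are independent samples. The labels give neither the age of the animals nor the reproductive stage of the glands. The summed level of 8 milk genes was 166073, 191434 and 305748 normalized cpm in glands 1, 2 and 3 and 1411 to 76987 in the tumors. By the rule given below, all 8 were called as lower in the tumors, against 6.99% of all genes tested. This difference accompanies every result below, and its part in them was not tested.

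D-type cyclins bind the kinases CDK4 and CDK6 in the G1 phase of the cell cycle, cyclin E binds CDK2, and both kinds of complex phosphorylate the retinoblastoma protein, which then releases E2F transcription factors for entry into S phase. The INK4 proteins (p16INK4a, p15INK4b and p18INK4c) bind CDK4 and CDK6 themselves and keep cyclin D away, whereas the Cip/Kip proteins (p21, p27 and p57) bind assembled cyclin and kinase complexes. In the mammary gland, cyclin D1 is known for its role in lobuloalveolar growth and as a frequent oncogene of breast cancer.

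The deposited values are reads divided by an effective library size, scaled as cpm values are, and are here called normalized cpm. Tumors held 6176269 to 16835397 reads on the listed genes and glands 11672487 to 23889042. Ribosomal RNA of the Rn45s gene made up 27.4% of the reads of tumor 9 and 4.35% of those of gland 3, the highest shares of their groups. Tsg101 was at 49.9 (lowest), 63.4 (median) and 101 (highest) normalized cpm in the tumors and at 45.6, 53.02 and 60.95 in glands 1 to 3, so that the groups overlapped, and its log2 fold change was 0.30 (limma, SE 0.20, adjusted p = 0.296). The transgene and the endogenous gene cannot be told apart in these values. The summed level of 10 squamous markers was 481 to 4204 normalized cpm in the tumors, highest in tumor 7 and next highest in tumor 3 (2136), and 6.59 to 20.4 in the glands, where 4 of the 10 were at 0 in every library. The summed level of 12 epithelial markers was 2142 to 3214 normalized cpm in the tumors and 2045, 2937 and 1318 in glands 1 to 3, and 3 of the 12 were called as higher in the tumors, against 10.2% of all genes tested by the rule given below. The sum of 12 adipocyte markers was 145 to 631 in the tumors and 5342, 5960 and 13045 in the glands, and without the filter on low values all 12 were called as lower in the tumors, against 10.1% of all genes. In bulk tissue, fewer cells of a type and less RNA per cell cannot be told apart.

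A gene was counted as significantly deregulated at a false discovery rate (FDR) under 0.05 with a change of more than 2-fold between tumors and glands, in a limma fit on log2(normalized cpm + 1) over all genes that passed a filter on low values. By this rule 7 of the 10 genes were deregulated. Cdkn2b, Cdkn1a, Cdkn2a, Ccnd3 and Ccnd1 rose, and Ccnd2 and Cdkn2c fell. The same rule called 17.2% of the 11795 genes tested, 10.2% as higher and 6.99% as lower in the tumors. Cdkn2a did not pass the filter and was taken from the same fit without it, in which 10.5% of the genes were called as higher. Cdkn2b was under the filter's limit of 5 normalized cpm in all 3 glands and passed through its level in the tumors. Ccne1 passed the FDR but not the 2-fold limit, and Cdkn1b and Cdkn1c passed neither.

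**Figure D1:**
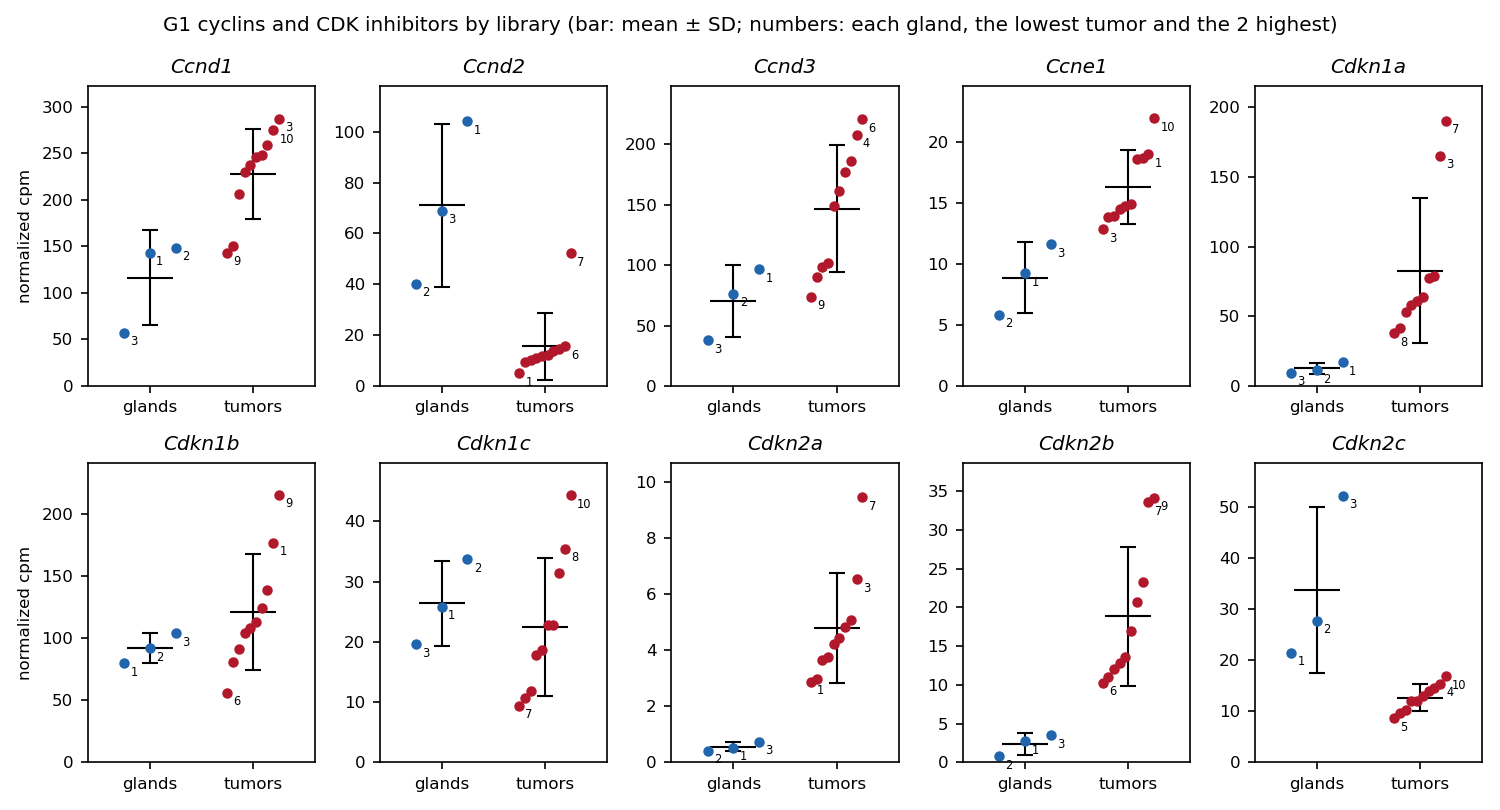
Level of each of the 10 genes in normalized cpm (y axes, linear, starting at 0) in the 3 glands (blue) and the 10 tumors (red). Each point is a library, the horizontal line is the group mean and the whiskers are the SD. Cdkn1a, Cdkn2a, Cdkn2b and Ccne1 lay higher in all 10 tumors than in any gland, Cdkn2c lay lower in all 10, and tumor 7 stood apart from the other tumors in Ccnd2. The share of all genes without overlap between the groups was not counted.

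Of the D-type cyclins, Ccnd1 and Ccnd3 were higher in the tumors, whereas Ccnd2 was lower. Ccnd1 (Entrez 12443; GRCm38.p6 chromosome 7, 144929931 to 144939831) encodes cyclin D1. It was at 143 (lowest), 241 (median) and 287 (highest) normalized cpm in the tumors, and at 143, 148 and 57.4 in glands 1, 2 and 3. All tumors except tumor 9 were above the 3 glands, tumor 5 only narrowly (151), and tumor 9 was level with gland 1. The mean of the tumors was 228 ± 48.4 (SD, n = 10) and that of the glands 116 ± 51.04 (SD, n = 3). The log2 fold change was fitted on log2(normalized cpm + 1), not taken from these means, and was 1.05 (limma, SE 0.28, adjusted p = 0.0120). The call was lost without gland 3. Without that library, the log2 fold change of Ccnd1 was 0.61 (adjusted p = 0.0762, limma). On the recovered reads of all libraries the call was also lost. There the log2 fold change was 0.96 with edgeR (adjusted p = 0.0225) and 0.97 with DESeq2 (adjusted p = 0.00215), both just under the 2-fold limit.

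Ccnd3 (Entrez 12445; chromosome 17, 47505051 to 47599689), which encodes cyclin D3, the D-type cyclin best known from lymphocytes and differentiating cells, gave a similar picture with a wider spread. Its level was 73.7 (lowest), 156 (median) and 221 (highest) normalized cpm in the tumors and at 96.6, 76.4 and 37.7 in glands 1, 2 and 3. The groups overlapped, with 8 of the 10 tumors above every gland. Tumors 1 (89.8) and 9 (73.7) lay within the range of the glands. The log2 fold change of Ccnd3 was 1.06 (limma, SE 0.35, adjusted p = 0.0355). This call was near the threshold. It was lost when gland 3 was left out (0.68, adjusted p = 0.171), when gland 2 was left out (1.18, adjusted p = 0.0681), and when any of tumors 3, 4, 6, 7, 8 or 10 was left out (0.99 to 1.05, adjusted p between 0.0455 and 0.0545).

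Both calls were also lost when each library was scaled to its epithelial markers, a setting that moved the median log2 difference over all genes from 0.01 to -0.64. Of these markers, Krt7 (log2 fold change 3.32), Cldn4 (1.59) and Elf3 (1.23) were themselves called as higher in the tumors. The median of the 12 markers was 0.40. The scaling carries these differences and is not a measure of epithelial content alone. On that scale the log2 fold change was 0.38 for Ccnd1 (adjusted p = 0.123) and 0.40 for Ccnd3 (adjusted p = 0.220). Gland 3, which had the lowest Ccnd1 and Ccnd3 of the glands, also had the lowest summed epithelial markers and the highest summed adipocyte and milk markers among them. The part of these markers in the 2 results was not tested beyond this scaling. Gland 3 and tumor 9 had the most ribosomal RNA and the lowest Ccnd1 and Ccnd3 of their groups. Both calls were lost without these 2 libraries, an alternative chosen after seeing the data. The log2 fold change was then 0.68 for Ccnd1 (adjusted p = 0.0251, limma) and 0.77 for Ccnd3 (adjusted p = 0.0815). Both calls were kept without tumor 9 alone (1.12 and 1.16). The part of ribosomal RNA in the 2 results was not tested.

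Ccnd2 (Entrez 12444; chromosome 6, 127125162 to 127152188) encodes cyclin D2, which is prominent in lymphocytes, gonads and the nervous system. It was at 4.98 (lowest), 11.9 (median) and 52.2 (highest) normalized cpm in the tumors and at 104, 40.2 and 68.9 in glands 1, 2 and 3. Tumor 7 overlapped with the glands, and the other 9 tumors, at no more than 15.6, were below all of them. On the log2 scale the difference was -2.27 (limma, SE 0.46, adjusted p = 0.00181). Without tumor 7 it was -2.48 (adjusted p = 4.59e-05), and its direction was kept under all 26 alternatives and its call under 25, with -2.67 (adjusted p = 0.0819) under the replicate block. On the epithelial scale the difference was -2.93.

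Marker genes of several cell types differed between tumors and glands in either direction. Of the endothelial list 8 of 9 genes were called as lower in the tumors, and of the fibroblast list 4 of 8 as lower and 1 as higher, against 6.99% of all genes tested as lower and 10.2% as higher. The summed myoepithelial and smooth muscle markers were 90.6 to 267 normalized cpm in the tumors and 1125 to 2399 in the glands, and all 5 of them that passed the filter were called as lower. The summed basal epithelial markers were 1376 to 5210 in the tumors and 433 to 1054 in the glands, with 6 of 8 called as higher and 1 as lower. Of the macrophage list 3 of 10 were called as higher, and the summed neutrophil markers were 302 to 3939 normalized cpm in the tumors and 3.92 to 49.3 in the glands. The neutrophil sum of the tumors was mostly S100a8 (mean 869) and S100a9 (427). These genes and Csf3r were called as higher. Without the filter, Cxcr2 (log2 fold change 0.36, adjusted p = 0.669, limma) and Retnlg (0.70, adjusted p = 0.122) were not called. The summed level of 12 lymphocyte markers was 680, 35.1 and 656 normalized cpm in glands 1, 2 and 3 and 21.6 to 159 in the tumors, and 9 of the 12 were called as lower without the filter, against 10.1% of all genes. Gland 2, with the fewest lymphocyte markers, had the lowest Ccnd2 of the glands. Its lymphocyte markers were within the range of the tumors, and its Ccnd2 was higher than in 9 of the 10 tumors. Tumor 7, with the highest Ccnd2 of the tumors, had a lymphocyte sum of 32.1 and the highest squamous (4204) and basal epithelial (5210) sums. The part of these markers in the level of Ccnd2 was not tested.

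Levels were compared between the D-type cyclins per kb of merged exons, as the share of each gene in the summed level of the 3 genes. These shares are descriptions without a test. Ccnd2 contributed 16.6%, 7.79% and 25.03% of the D-type cyclin level in glands 1, 2 and 3, and between 0.802% and 5.57% in the tumors, with the highest share in tumor 7. Even the lowest gland share was thus above the highest tumor share. Ccnd1 contributed 50.4% ± 7.01 to the tumors (SD, n = 10) and 43.4% ± 7.35 to the glands (SD, n = 3), and Ccnd3 47.7% ± 6.98 and 40.2% ± 2.43. Single tumors ranged from 61.9% Ccnd1 and 36.1% Ccnd3 in tumor 2 to 39.9% and 58.6% in tumor 6. Without division by exon length, Ccnd1 had a mean share of 59.2% and Ccnd3 of 36.9% in the tumors. Summed over the 3 genes, the tumors had 123 ± 31.6 normalized cpm per kb (SD, n = 10) and the glands 70.4 ± 26.7 (SD, n = 3).

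**Figure D2:**
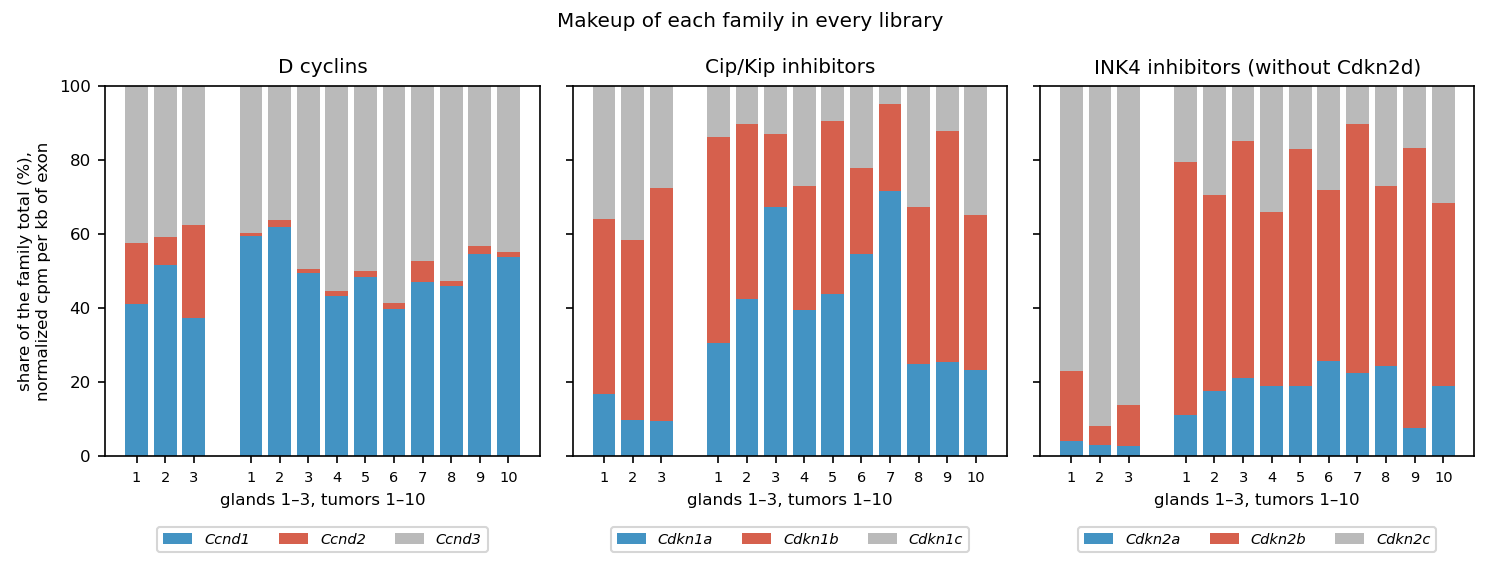
Share of each gene in the summed level of its family (y axis, percent of normalized cpm per kb of merged exons) in glands 1 to 3 and tumors 1 to 10 (x axes), with a stacked bar for each library. Ccnd2 took at most 5.57% of the D-type cyclins in a tumor, the share of Cdkn1a in its family varied from 23.4% to 71.6% among tumors, and of the 3 INK4 genes shown (Cdkn2d is not among them) Cdkn2c had the highest share in the 3 glands and Cdkn2b in the 10 tumors.

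Ccne1 (Entrez 12447; chromosome 7, 38097984 to 38107490), which encodes cyclin E1, the partner of CDK2 late in G1, varied little between tumors. Its level was 12.8 (lowest), 14.8 (median) and 21.9 (highest) normalized cpm in the tumors and at 9.21, 5.83 and 11.6 in glands 1, 2 and 3. All 10 tumors were above all 3 glands. Tumors differed from glands by a log2 fold change of 0.83 (limma, SE 0.20, adjusted p = 0.00636), with a 95% interval of 0.40 to 1.26. It passed the 2-fold limit without gland 3 (1.03, adjusted p = 0.00309), and it lost the FDR without gland 2 (0.59, adjusted p = 0.0621). On the epithelial scale it was 0.20 (adjusted p = 0.647).

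Of the Cip/Kip inhibitors, Cdkn1a was deregulated, and Cdkn1b and Cdkn1c passed neither threshold. Cdkn1a (Entrez 12575; chromosome 17, 29090979 to 29100722) encodes p21, a target of p53 that also responds to many other signals. It was at 37.9 (lowest), 62.5 (median) and 190 (highest) normalized cpm in the tumors and at 16.9, 11.1 and 9.63 in glands 1, 2 and 3. The groups did not overlap, and the lowest tumor was clearly above the highest gland. The fitted log2 difference was 2.47 (limma, SE 0.42, adjusted p = 0.000458), and it ranged from 1.83 to 2.77 over 26 alternatives. Its adjusted p was at most 0.00384 except under the replicate block, where the call was lost (2.68, adjusted p = 0.0617, limma). Tumors 7 (190) and 3 (165) were well above the other 8, which did not exceed 79.2. They were also the tumors with the highest summed squamous markers (4204 and 2136), and the part of these in the level of Cdkn1a was not tested. Tumor 2, from the same mouse as tumor 3, was at 60.97, so that the 2 tumors of that animal differed 2.71-fold.

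Cdkn1b (Entrez 12576; chromosome 6, 134920401 to 134925525) encodes p27, which is regulated to a large extent through its stability as a protein. Its level was 56.1 (lowest), 111 (median) and 216 (highest) normalized cpm in the tumors and at 79.9, 92.1 and 104 in glands 1, 2 and 3. Tumor 6 was below all glands and 7 tumors were above them. On the log2 scale the difference was 0.31 (limma, SE 0.31, adjusted p = 0.506), with a 95% interval from -0.35 to 0.97. The direction turned on the epithelial scale (-0.36, adjusted p = 0.523). Cdkn1b was highest in tumor 9, the library with the most ribosomal RNA, and the part of that in its level was not tested.

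Cdkn1c (Entrez 12577; chromosome 7, 143458339 to 143461059) encodes p57, an imprinted inhibitor that is expressed from the maternal allele. It was at 9.44 (lowest), 20.7 (median) and 44.3 (highest) normalized cpm in the tumors and at 25.8, 33.7 and 19.6 in glands 1, 2 and 3. The tumors lay on both sides of the glands, 5 below and 2 above all of them. Tumors differed from glands by a log2 fold change of -0.34 (limma, SE 0.40, adjusted p = 0.566). The 95% interval from -1.19 to 0.51 includes a fall of more than 2-fold but no rise of that size. On the epithelial scale the difference was -0.99 (adjusted p = 0.0470), which passed the FDR but not the 2-fold limit.

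Per kb of exon, Cdkn1b was the leading Cip/Kip gene in the glands, with 47.4%, 48.6% and 62.7% of the summed level in glands 1, 2 and 3. Cdkn1a contributed 16.8%, 9.81% and 9.69% in the glands and 23.4% (lowest), 40.9% (median) and 71.6% (highest) in the tumors, and every tumor was above every gland. For Cdkn1c the tumors had a share of 18.0% ± 10.4 (SD, n = 10) and the glands of 35.0% ± 7.02 (SD, n = 3). Without division by exon length, the mean share of Cdkn1c was 10.8% in the tumors and 20.1% in the glands. The order of the other two in the tumors turned with that choice, from a mean of 42.4% for Cdkn1a and 39.6% for Cdkn1b per kb to 35.7% and 53.5% without length. Summed over the family, the tumors had 68.7 ± 15.4 normalized cpm per kb (SD, n = 10) and the glands 38.4 ± 2.81 (SD, n = 3).

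The INK4 genes moved in opposite directions. Cdkn2a and Cdkn2b, neighbours on chromosome 4, rose in the tumors, whereas Cdkn2c, which lies elsewhere on the same chromosome, fell. Cdkn2a (Entrez 12578; chromosome 4, 89274473 to 89294619) has 2 first exons with separate promoters, and its transcripts encode p16INK4a and p19ARF in different reading frames. p19ARF binds MDM2 and thereby protects p53. The counts are per gene and do not separate the 2 products. Both genes lie on the minus strand, and 11669 bases separate the first start of Cdkn2a from the end of Cdkn2b (Entrez 12579; chromosome 4, 89306289 to 89311032), which encodes p15INK4b, an inhibitor known to be induced by TGF-beta. In the RefSeq annotation, 4 of the 10 genes overlap with others, namely Ccnd1 with LTO1, Ccnd2 with the noncoding 9330179D12Rik, Ccnd3 with Bysl and the noncoding Gm41590, and Cdkn2b with the noncoding Gm12610. Whether counting used strand is not given in the sources used here, so reads from the overlapping stretches cannot be told apart, and the levels of these 4 genes are uncertain to that extent.

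Because the neighbours Cdkn2a and Cdkn2b both rose in the tumors, the DNA before their 3 start sites is shown. Each sequence covers the bases from 250 to 51 before the RefSeq start (GRCm38.p6, minus strand, written 5′ to 3′ in the direction of the gene), and capitals mark a match to an E2F motif on either strand.
Cdkn2a, start of the p19ARF transcript, chr4:89294670-89294869: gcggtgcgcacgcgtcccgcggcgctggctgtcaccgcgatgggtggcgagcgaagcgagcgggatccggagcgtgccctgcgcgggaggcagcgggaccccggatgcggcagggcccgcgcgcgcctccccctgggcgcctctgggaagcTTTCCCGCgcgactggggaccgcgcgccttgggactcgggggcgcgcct
Cdkn2a, start of the p16INK4a transcript, chr4:89282243-89282442: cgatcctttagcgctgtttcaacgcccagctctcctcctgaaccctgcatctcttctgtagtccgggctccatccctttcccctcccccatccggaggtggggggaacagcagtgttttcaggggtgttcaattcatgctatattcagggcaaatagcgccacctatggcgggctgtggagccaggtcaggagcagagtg
Cdkn2b, chr4:89311083-89311282: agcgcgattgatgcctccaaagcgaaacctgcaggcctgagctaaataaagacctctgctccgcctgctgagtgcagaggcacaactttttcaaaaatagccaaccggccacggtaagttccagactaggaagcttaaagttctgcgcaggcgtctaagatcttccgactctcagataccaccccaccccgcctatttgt
The window before the p19ARF start held 79% G and C, against 57.5% before the p16INK4a start, 52% before Cdkn2b and a median of 51.5% over all 32851 windows of this kind. The E2F motif was searched as TTTCCCGC, TTTCGCGC, TTTGCCGC or TTTGGCGC on both strands, and the GC box, a site for SP1-like factors, as GGGCGG on both strands, where matches of the 2 motifs may overlap. The p19ARF window held 1 E2F match and no GC box, and the other 2 windows held neither. Of all windows, 1.46% held an E2F match and 24.6% a GC box. The table covered 11 start sites of 7 of the 10 genes, and 5 of these windows held a GC box. These are matches of letters, not sites of binding.

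Cdkn2a was low in all libraries. Its level was 2.88 (lowest), 4.33 (median) and 9.44 (highest) normalized cpm in the tumors and at 0.514, 0.413 and 0.731 in glands 1, 2 and 3. These gland values were above the limit that a count of 0 allows (3 reads, or 0.128, 0.155 and 0.366 normalized cpm), a limit that covers counting error only. All 10 tumors were above all 3 glands, and the lowest tumor was several times the highest gland. The fitted log2 difference was 1.84 on the log2(normalized cpm + 1) scale, which understates changes at such levels (limma, SE 0.26, adjusted p = 9.09e-05 without the filter). On the recovered reads it was 3.14 with edgeR and 3.20 with DESeq2. Adding 5 in place of 1 before the logarithm brought it under the 2-fold limit (0.79, adjusted p = 0.00114). Tumor 9, the highest in Cdkn2b, was at 2.96, next to the lowest tumor. Tumors 7 (9.44) and 3 (6.52) were the highest, as they were for Cdkn1a and for the squamous markers.

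Cdkn2b was at 10.3 (lowest), 15.3 (median) and 34.1 (highest) normalized cpm in the tumors and at 2.74, 0.774 and 3.54 in glands 1, 2 and 3. The groups did not overlap. The log2 fold change of 2.55 (limma, SE 0.38, adjusted p = 0.000155) was the largest of the 10 genes in this fit, and Cdkn2b kept its call under all 26 alternatives, at 1.63 to 3.03. The highest tumors were tumor 9 (34.1) and tumor 7 (33.6), which came from different mice. These tumors also had the highest summed neutrophil markers (2561 in tumor 9 and 3939 in tumor 7), a list whose level in the tumors was mostly that of S100a8 and S100a9. Tumor 9 had the highest summed macrophage markers (4852) and the most ribosomal RNA, tumor 7 had the highest squamous markers, and the part of these in the level of Cdkn2b was not tested. Tumors 8 and 10, from the same mouse as tumor 9, were at 12.0 and 13.6.

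Cdkn2c (Entrez 12580; chromosome 4, 109660876 to 109666756) encodes p18INK4c, an inhibitor with known roles in luminal progenitor cells and in differentiating tissues. It was at 8.66 (lowest), 12.5 (median) and 16.9 (highest) normalized cpm in the tumors and at 21.5, 27.7 and 52.2 in glands 1, 2 and 3. All 10 tumors were below all 3 glands. On the log2 scale the difference was -1.28 (limma, SE 0.24, adjusted p = 0.00111). Without gland 3 the difference was under the 2-fold limit (-0.92, adjusted p = 0.00775), although every tumor remained below both other glands. The 3 glands had the same order in Cdkn2c as in the summed adipocyte markers (5342, 5960 and 13045), of which the tumors had at most 631, and as in the summed milk markers (166073, 191434 and 305748), of which the tumors had at most 76987. Gland 3, the highest in Cdkn2c, also had the most ribosomal RNA of the glands (4.35%). Without it and tumor 9, the tumor with the most, the difference was under the 2-fold limit (-0.94, adjusted p = 0.00722, limma). The part of adipocytes, of milk-producing cells and of ribosomal RNA in the level of Cdkn2c was not tested.

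The shares of the INK4 genes were first taken over the 3 genes described here, without Cdkn2d, the fourth gene of the family. Per kb of exon, Cdkn2c made up 76.8%, 91.9% and 86.0% of the summed level in glands 1, 2 and 3 and 10.1% (lowest) to 33.9% (highest) in the tumors. Cdkn2b made up 19.0%, 4.96% and 11.3% in the glands and 46.2% to 75.6% in the tumors, where it had the highest share of the 3 genes each time. Cdkn2a made up 4.22%, 3.14% and 2.76% in the glands and 7.77% to 25.7% in the tumors. None of these shares overlapped between tumors and glands. The order within the tumors depended on exon length, since without division by it Cdkn2b led in 5 tumors and Cdkn2c in the other 5, while Cdkn2c led in all 3 glands on either scale. Cdkn2d, which encodes p19INK4d, was at 14.5 (lowest), 17.6 (median) and 22.3 (highest) normalized cpm in the tumors and at 11.2, 10.4 and 20.97 in glands 1, 2 and 3, with a log2 difference of 0.36 (limma, adjusted p = 0.187). With Cdkn2d in the total, per kb of exon, it led in 6 tumors and Cdkn2b in 4, Cdkn2b made up 26.4% to 55.3% in the tumors and 3.04% to 10.95% in the glands, and Cdkn2c 7.12% to 20.1% and 44.4% to 56.4%. The summed level of the 3 genes overlapped between the groups, with 22.3 ± 6.92 normalized cpm per kb for the tumors (SD, n = 10) and 14.7 ± 6.81 for the glands (SD, n = 3).

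**Figure D3:**
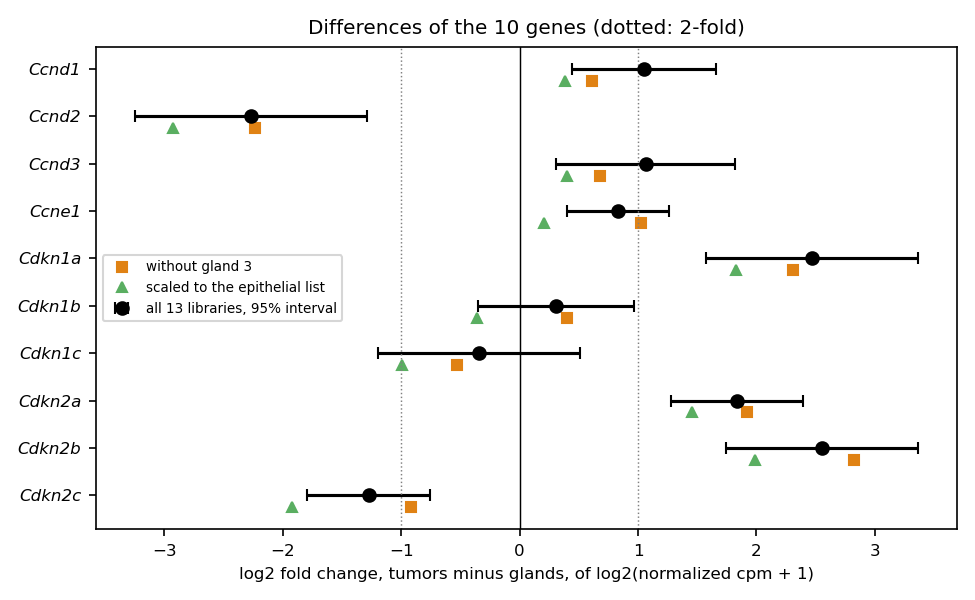
Difference of the 10 genes between tumors and glands (x axis, log2 fold change of log2(normalized cpm + 1)). Black points with 95% intervals are from all 13 libraries (without the filter for Cdkn2a), orange squares leave out gland 3, green triangles scale each library to its epithelial markers, and dotted lines mark 2-fold. Ccnd1 and Ccnd3 drop under the 2-fold line in both alternatives (0.61 and 0.68 without gland 3), while Ccnd2, Cdkn1a, Cdkn2a and Cdkn2b stay beyond it.

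The spread between tumors also differed among the genes. The SD of log2(normalized cpm + 1) over the 10 tumors was 0.79 for Ccnd2, 0.76 for Cdkn1a and 0.72 for Cdkn1c, larger than in 94.8%, 93.7% and 92.2% of the genes tested. It was 0.24 for Ccne1 and 0.28 for Cdkn2c, larger than in only 21.2% and 30.7% of them, and the median over all genes tested was 0.37. The spread of Ccnd2 rested on tumor 7, without which its SD was 0.44, larger than in 64.2% of the genes. Tumors of the same mouse were not alike in each gene. Between tumors 8, 9 and 10 of the same animal, the highest value was 2.84 times the lowest for Cdkn2b, 2.50 times for Cdkn1c and 2.41 times for Ccnd3, but 1.18 times for Ccne1 and 1.21 times for Ccnd2. With tumors of the same mouse averaged to 1 sample, the count of deregulated genes among the 10 was again 7, with 1917 in place of 2029 over all genes.

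The kinases and downstream genes of the pathway are given next, from lists of genes by function. Of 26 other genes of the G1/S machinery, 24 passed the filter, and 2 of them rose and none fell, against 10.2% and 6.99% of all genes tested. These were E2f2 (log2 fold change 1.06, adjusted p = 0.0329, limma), an activating E2F factor, and Ccna2 (1.04, adjusted p = 0.000839), which encodes cyclin A2. Both were near the 2-fold limit, and only 1 gene of the list was called when tumor 3, tumor 10, gland 2 or gland 3 was left out. Without gland 3 that gene was Rbl1, which encodes the pocket protein p107, so that neither E2f2 nor Ccna2 was called. The 24 genes had a median log2 fold change of 0.34, against 0.01 over all genes tested. Among the partners of the D-type cyclins and INK4 proteins, Cdk4 was at 244 ± 34.8 normalized cpm (SD, n = 10) in tumors and 173 ± 22.8 (SD, n = 3) in glands, and its difference of 0.49 (log2) passed the FDR but not the 2-fold limit (adjusted p = 0.0368, limma). Cdk6 was low in both groups and outside the filter, at 3.82 ± 1.16 and 4.17 ± 0.437 normalized cpm, and its log2 fold change was -0.14 (adjusted p = 0.694). Rb1, which encodes the retinoblastoma protein, differed by 0.59 (log2; adjusted p = 0.0242), and E2f1 had 0.26 (adjusted p = 0.474). Rbl2, which encodes the pocket protein p130, was the 1 gene of the list that passed the FDR downward (-0.61, adjusted p = 0.00283), and it was called as lower on the epithelial scale. Skp2, which encodes the ubiquitin ligase subunit that marks p27 for degradation, had 0.84 (adjusted p = 0.00776).

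All 22 genes of a list for S phase and mitosis passed the filter, and 5 of them rose and none fell, against 10.2% and 6.99% of all genes tested. The genes that rose were Ccnb1 (log2 fold change 1.56, adjusted p = 9.62e-05, limma), Bub1 (1.45, adjusted p = 0.000719), Cdk1 (1.37, adjusted p = 0.000353), Ccnb2 (1.16, adjusted p = 0.000273) and Pcna (1.02, adjusted p = 0.0225). Ccnb1, Ccnb2 and Cdk1 encode the B-type cyclins and their kinase, Bub1 a kinase of the spindle checkpoint and Pcna the sliding clamp of DNA polymerase. By the FDR alone, 14 of the 22 genes were higher in the tumors, against 14.8% of all genes tested, and the fold change was above 0 for 21, against 51% of all genes tested. Mki67, the usual marker of proliferating cells, was at 44.2 (lowest), 130 (median) and 185 (highest) normalized cpm in the tumors and at 75.4, 112 and 34.0 in the glands, with overlapping groups and a log2 difference of 0.74 (limma, adjusted p = 0.212). On the epithelial scale, no gene of this list was called, where 606 of the 11795 genes tested were called as higher and 2919 as lower.

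The list of the p53 axis, to which Cdkn1a belongs as a target gene, held 16 other genes, of which 15 were listed and 14 passed the filter. None of the 14 was called by limma, against 17.2% of all genes tested, and none by edgeR or DESeq2. In limma 6 had an unadjusted p under 0.05, against 38.3% of all genes tested. On the epithelial scale 6 of the 14 were called, all as lower in the tumors, against 24.7% of all genes called as lower on that scale. By the FDR alone 3 genes were lower in the tumors, against 13% of all genes tested, namely the p53 targets Bbc3 (log2 fold change -0.89, adjusted p = 0.0123), Rrm2b (-0.79, adjusted p = 0.0160) and Btg2 (-0.76, adjusted p = 0.00250), which were named after their values were seen. For Trp53 itself the log2 difference was -0.30 (adjusted p = 0.532) and for Mdm2, a target and inhibitor of p53, it was 0.34 (adjusted p = 0.230). Against the 2.47 of Cdkn1a, the highest log2 difference of the 14 genes was that of Sesn1, a p53 target of the stress response (0.37, adjusted p = 0.392).

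**Figure D4:**
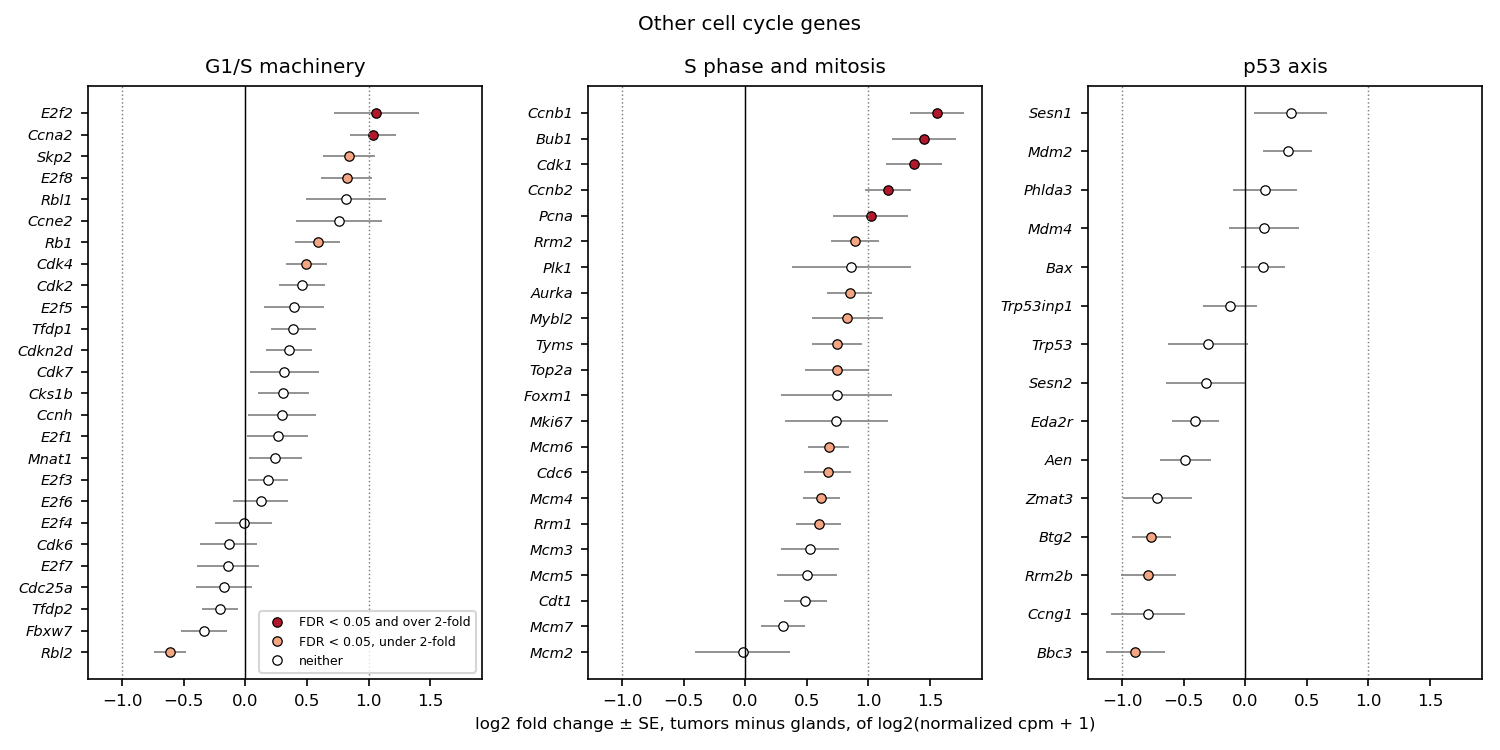
Log2 fold change with standard error (x axes, tumors minus glands, of log2(normalized cpm + 1)) for the listed genes of 3 lists. Red points passed the FDR and the 2-fold limit, orange points the FDR alone and white points neither, and genes outside the filter are from the fit without it. The points of S phase and mitosis lie to the right of 0 for 21 of 22 genes, and no point of the p53 axis lies beyond 2-fold.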

How the data were processed

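Total RNA of flash-frozen tumors and glands was sequenced, and per the paper's methods paired-end reads were mapped to mm10 with Rsubread, counted per gene with featureCounts and normalized with edgeR. The strand setting is not given in the sources used here, and the labels name 2 sequencing sites without assigning libraries, so that no batch could be modelled. The signal values deposited by the authors are reads divided by an effective library size, scaled as cpm values are. In each library, 100% of them were whole multiples of the value of 1 read (tolerance 0.1), and reads were recovered on this basis.

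Tumors and glands were compared with limma 3.58.1 (R 4.3.3; trend on mean expression, condition as the only term, 13 libraries) on log2(normalized cpm + 1), with Benjamini-Hochberg adjustment over 11795 genes. A gene was left out (3418 genes) where most libraries did not exceed 5 normalized cpm. Genes with an FDR under 0.05 and a change of more than 2-fold were called. The fit was tested on simulated data. edgeR 4.0.16 and DESeq2 1.42.0 were alternatives on recovered reads. The p-values treat the 10 tumors as separate samples, and the consensus correlation of tumors of the same mouse was 0.0477.

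Exon lengths are from GENCODE M21, coordinates and promoters from RefSeq (GRCm38.p6). The members and lists were chosen with earlier results of these data known. Named were the 10 genes, Tsg101, the 3 largest rises and falls called in each cell cycle list, and Mki67, Cdk4, Cdk6, Rb1, E2f1, Trp53 and Mdm2. Skp2, Rbl1, Rbl2, Cdkn2d, Ccnb2, Pcna, Bbc3, Rrm2b, Btg2 and Sesn1 were added after their values were seen. The cell type markers named singly were also added after their values were seen.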

Additional observations from a re-analysis of the deposited data

Results flagged for a closer look

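Among 25 genes examined in the 10 tumors on the log2(normalized cpm + 1) scale, 2 had a tumor that stood apart from the others by Dixon's test, which flags about 1 in 20 groups by chance. Ccnd2 was at 52.2 normalized cpm in tumor 7, and its gap to the next tumor (15.6) was 0.534 of the whole range. Rb1 was at 134 normalized cpm in tumor 8, with a gap of 0.484 of the range.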

How the results depend on the processing

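The calls of Cdkn2b held under all 26 alternatives, and those of Ccnd2, Cdkn1a and Cdkn2a under 25 of them. Ccnd1 lost its call under 6, Ccnd3 under 11 and Cdkn2c under 3. Cdkn1b turned its direction on the epithelial scale (-0.36). Leaving out a library in turn gave 5 to 7 of the 10 genes, and 1661 to 2660 of all genes. It gave 1 to 2 genes of the G1/S machinery, 4 to 5 of S phase and mitosis and 0 to 1 of the p53 axis, with the 1 (Bbc3, lower) called without gland 3. Without the filter on low values, 3141 genes were called in place of 2029, and on the epithelial scale 3525, of which 606 were higher and 2919 lower, in place of 1204 and 825. On that scale 1 gene of the G1/S machinery (Rbl2, lower), 0 of S phase and mitosis and 6 of the p53 axis, all lower, were called. With a pseudocount of 5, 0 and 3 genes were called in the G1/S and the S phase and mitosis lists. Without tumor 9 and gland 3 together, an alternative chosen after seeing the data, 5 of the 10 genes, 0 of the G1/S machinery, 5 of S phase and mitosis and 1 of the p53 axis were called, with 2551 over all genes. For the changes with scaling, pseudocount and libraries, the cause was not tested.

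The numbers 1 to 3 are shared by tumors and glands but do not pair animals: the deviations of same-numbered libraries from their group means correlated at -0.579, 0.0447 and -0.664. With the number as a replicate block, 544 genes and 2 of the 10 genes (Cdkn2a and Cdkn2b) were called, and 0 of the G1/S machinery, 0 of S phase and mitosis and 0 of the p53 axis. In that fit, tumors without a gland of the same number do not inform the difference. It rests on tumors 1 to 3 against glands 1 to 3. Without division by exon length, the mean share of Ccnd2 in the D-type cyclins was 3.898% in the tumors and 29.2% in the glands. The same alternative gave Cdkn2b 36.6% to 66.1% and Cdkn2c 18.5% to 50.9% of the 3 INK4 genes in the tumors. The shares with Cdkn2d and the spread without tumor 7 were added after seeing the data. Depth limits Cdkn2a most, which rested on 12, 8 and 6 reads in glands 1, 2 and 3.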
